A study of Mus musculus with 12 samples.

Results

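The Zfp genes of mouse chromosome 7 were examined for H4K20me3, trimethylation of lysine 20 of histone H4, a mark of heterochromatin. They were taken as the protein-coding RefSeq genes of chromosome 7 (assembly GRCm38.p6, which is mm10) whose symbol is Zfp followed by digits and an optional letter and whose start lies at or beyond 3 Mb. The rule gave 93 of the 21523 protein-coding genes used, on chromosomes 1 to 19 and X. H4K20me3 ChIP-seq, immunoprecipitation of the mark followed by sequencing, was made in mouse embryonic stem (ES) cells. The line is named dTKO, with the labelled genotype Suv39h1fl/fl; Suv39h2-/-; Setdb1fl/fl in all groups. Auxin (100 μg/ml) and dTAG13 (0.5 μM), agents that trigger the breakdown of tagged proteins, had acted for 0, 12, 24 and 48 h, and each of the 4 times has 3 replicates. The one deposited list holds 28210 domains, given by chromosome, start and end only. It names no library, time or genome build and carries no signal. Every value below thus describes that list, without replicate error, depth or change over time. Its positions were read as GRCm38, and this was not checked.

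Zfp genes encode zinc finger proteins, and the largest class of them joins an array of DNA-binding C2H2 fingers, usually encoded in the last exon, to a KRAB domain that recruits the corepressor TRIM28. TRIM28 in turn brings SETDB1, which trimethylates lysine 9 of histone H3, and HP1 proteins bound to that mark recruit the enzymes KMT5B and KMT5C, which make H4K20me3. The genes themselves stand in tandem arrays and are known to carry heterochromatin marks, above all over the exons that encode the fingers. The symbol rule does not ask for a KRAB domain. It includes Zfp36 (tristetraprolin), an RNA-binding protein with fingers of another type, and Zfp143, a promoter-binding transcription factor.

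A domain reached 14 of the 93 genes (15.1%), where 14.1% of all protein-coding genes and 10.3% of those on chromosome 7 did so by at least 1 base. Their share thus lay near that of all protein-coding genes and above that of chromosome 7, with gene length not taken into account. Among the 301 Zfp genes of other chromosomes it was 18.3%. The 14 genes, in order along the chromosome, were Zfp773, Zfp110, Zfp109, Zfp93, Zfp575, Zfp850, Zfp790, Zfp146, Zfp536, Zfp977, Zfp976, Zfp975, Zfp592 and Zfp629. They met 18 domains, no domain was shared between 2 of them, and Zfp536, Zfp976 and Zfp977 had more than 1.

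Coverage of the 14 genes ran from 1.51 to 88.9% of the body. Of the 93 genes, 3 were covered over at least 50% of the body (3.23%, against 0.739% of all protein-coding genes, 0.494% on chromosome 7 and 1.33% of Zfp genes elsewhere), and these were Zfp629, Zfp575 and Zfp977. Among genes with a domain, the median covered share was 16.5% for the 14 Zfp genes, 8.40% for 55 Zfp genes of other chromosomes, 7.13% for 209 genes of chromosome 7 and 4.29% for 3044 genes in all. Length goes with these shares, since the median length was 18.2 kb for the 14 Zfp genes, 44.0 kb for the 209 genes and 80.4 kb for the 3044. The median covered sequence of these 3 sets was 2.76, 3.00 and 3.45 kb, lowest in the Zfp genes. Over all 93 genes, 57.6 kb of 2061 kb lay in domains, or 2.80%, against 2.04% of the bodies of chromosome 7 protein-coding genes and 2.79% of those of Zfp genes elsewhere.

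By length, the genes met domains unevenly. Of 17 Zfp genes of over 5 and up to 10 kb, 4 had a domain (23.5%, against 3.26% of all protein-coding genes in that range), and of 24 genes of over 20 and up to 40 kb, 5 did (20.8% against 11.7%). In the most populated range, over 10 and up to 20 kb, only 2 of 36 did (5.56% against 6.18%). The shortest genes, up to 5 kb, gave 1 of 10 (10.0% against 3.17%), and those over 40 kb 2 of 6 (33.3% against 35.0%). These counts are small, and neighbouring genes are not independent.

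Zfp629, a C2H2 zinc finger gene at chr7:127607028-127615785 on the minus strand (8.76 kb), was the most covered gene. Its domain, chr7:127608001-127628700, was 20.7 kb wide, a width reached by 1.15% of the 1561 domains of chromosome 7. It began 12.91 kb upstream of the outer start of the gene, covered 7.79 kb of the body (88.9%) and stopped 0.972 kb short of the outer end. No other annotated gene lay in it. All 3 RefSeq promoter windows of the gene, each from 250 bases before to 50 bases after a start, lay wholly inside. They are shown because, among the Zfp genes with promoter windows, Zfp629 was the one with its promoter inside a domain. Sequences are from RefSeq (GRCm38.p6), written 5′ to 3′ on the strand of the gene, and capitals mark each CG dinucleotide.
Zfp629, chr7:127614384-127614683, minus strand: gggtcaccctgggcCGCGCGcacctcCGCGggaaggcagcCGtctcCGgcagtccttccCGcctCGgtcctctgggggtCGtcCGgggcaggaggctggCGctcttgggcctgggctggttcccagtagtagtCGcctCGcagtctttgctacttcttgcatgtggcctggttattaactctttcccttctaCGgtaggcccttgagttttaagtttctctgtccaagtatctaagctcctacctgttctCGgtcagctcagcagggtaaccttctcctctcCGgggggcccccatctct
Zfp629, chr7:127614818-127615117, minus strand: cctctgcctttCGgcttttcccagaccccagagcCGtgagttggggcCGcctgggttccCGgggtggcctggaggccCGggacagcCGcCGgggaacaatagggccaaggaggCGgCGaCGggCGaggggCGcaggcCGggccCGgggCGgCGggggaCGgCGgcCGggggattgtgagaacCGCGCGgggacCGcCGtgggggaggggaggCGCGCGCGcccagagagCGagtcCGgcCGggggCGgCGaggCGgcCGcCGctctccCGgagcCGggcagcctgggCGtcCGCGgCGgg
Zfp629, chr7:127615223-127615522, minus strand: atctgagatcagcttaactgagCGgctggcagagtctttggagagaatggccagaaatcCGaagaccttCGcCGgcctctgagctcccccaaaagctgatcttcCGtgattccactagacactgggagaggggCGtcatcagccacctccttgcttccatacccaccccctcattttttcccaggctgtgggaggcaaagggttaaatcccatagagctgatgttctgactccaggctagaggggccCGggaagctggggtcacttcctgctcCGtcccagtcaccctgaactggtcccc
The windows held 17, 42 and 8 CG dinucleotides. Across all protein-coding genes, the median was 13 in 20754 windows outside domains and 8 in 291 windows that touched one. The middle window of Zfp629, with 42 and a G+C content of 79.7%, had the most of those 291 windows, a point noted after its value was seen.

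Promoters of the other Zfp genes with an entry in the promoter table lay outside domains or touched one by a few bases. Of the 85 genes with an entry in the promoter table, 3 had a window that touched a domain (3.53%, against 1.59% of all protein-coding genes, 1.49% on chromosome 7 and 1.64% of Zfp genes elsewhere). Apart from Zfp629, the contact was 5 bases in Zfp977 and 7 bases in Zfp108, less than the 150-base grid on which the domains were called. The genes without an entry, for which strand was not used, were Zfp524, Zfp865, Zfp446, Zfp114, Zfp575, Zfp574, Zfp568 and Zfp646. Their promoters, that of the 85.3% covered Zfp575 among them, were not examined. When the outer end of the gene was taken as its start, 6 of 85 windows touched a domain (7.06%, against 1.63% of all protein-coding genes). Zfp109 and Zfp790 have their table start 14.7 and 4.63 kb inside the outer start, and their domains lie across the outer start only.

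At the other end of the genes, a domain lay over the last 2 kb in 6 of 85 (7.06%, against 2.16% of all protein-coding genes, 2.12% on chromosome 7 and 5.33% of Zfp genes elsewhere). These were Zfp773, Zfp93, Zfp146, Zfp976, Zfp977 and Zfp629. The first 2 kb held a domain in 5 of 85 (5.88%, against 1.93% of all protein-coding genes, 2.12% on chromosome 7 and 3.28% of Zfp genes elsewhere), namely Zfp110, Zfp109, Zfp790, Zfp977 and Zfp629. Exon positions were not used here, so whether a domain covers the exon that encodes the fingers was not measured.

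Of the 17 domains on genes with a known strand, 5 crossed the outer end (29.4%), 3 crossed the outer start (17.6%) and 9 lay inside the gene (52.9%). Over 4407 pairs of a protein-coding gene and a domain, 4.61% crossed the end and 3.86% the start, and 90.2% lay inside, in genes that are much longer. Over 301 such pairs of chromosome 7, 7.64% crossed the end and 5.98% the start, and 85.7% lay inside. The 5 that crossed the end were those of Zfp773, Zfp93, Zfp146, Zfp976 and Zfp977. In Zfp773 (6.08 kb), a 1.35 kb domain covered the part from 84.8% of the gene length to 0.427 kb past the end. Zfp93 (9.81 kb) had a 2.10 kb domain from 83.2% of its length to 0.456 kb past the end. In Zfp146, which encodes a protein made almost entirely of fingers, a 3.15 kb domain ran from 83.7% of the length to 1.636 kb past the end. These 3 of the 5 genes, grouped here for their like values, were covered over a similar final stretch, 15.2%, 16.8% and 16.3% of the body. In Zfp976 and Zfp977 the domain across the end began at 98.5% and 61.9% of the length.

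Each gene body was cut into 3 equal parts along the direction of transcription. Of all covered bases in the 13 genes with a domain and a strand, 50.5% lay in the last part, 18.3% in the middle part and 31.2% in the first, against 32.4, 36.0 and 31.5% over all protein-coding genes. The last part held 34.3% in chromosome 7 protein-coding genes and 39.2% in Zfp genes elsewhere. Per gene, the mean share in the last part was 52.1% ± 44.8 (SD over 13 genes), against a mean of 34.5% over 2415 protein-coding genes. The mean was 37.8% for 180 genes of chromosome 7 and 30.0% for 47 Zfp genes elsewhere. Single genes ranged widely, and the differences were not tested. Most covered bases lay in the last part in 7 genes, Zfp773, Zfp93, Zfp850, Zfp146, Zfp977, Zfp976 and Zfp592, and elsewhere in the other 6. In Zfp850 (29.7 kb), a domain of 10.65 kb stood wholly inside the gene, from 55.7 to 91.5% of its length, the largest stretch of covered sequence in any of the 93 genes.

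**Figure D1:**
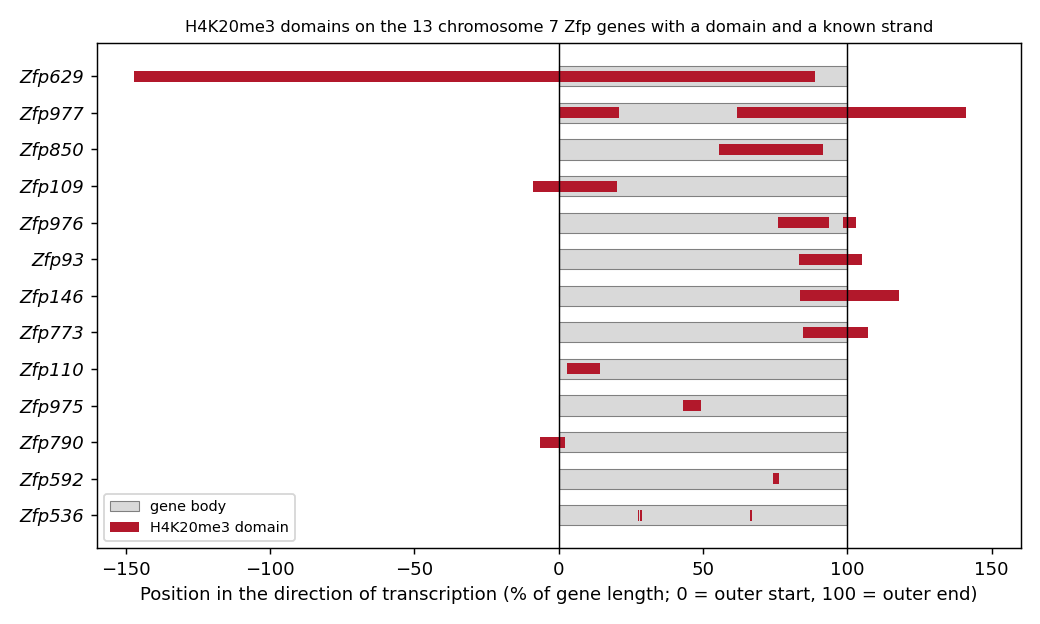
Horizontal bars show the 13 Zfp genes of chromosome 7 with a domain and a known strand, each drawn from its outer start (0%) to its outer end (100%) in the direction of transcription, with H4K20me3 domains in red; the x axis is in percent of gene length. Domains of Zfp977, Zfp976, Zfp93, Zfp146 and Zfp773 cross the end, those of Zfp629, Zfp109 and Zfp790 cross the start, and those of Zfp536 cover 1.51% of the gene.

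The domains near gene starts belonged to genes of different kinds. Zfp110, which encodes an interactor of the neurotrophin receptor p75, had a domain of 1.80 kb beginning 0.440 kb after the start (11.4% of the body). Zfp109 (24.5 kb) had a 7.20 kb domain reaching from 2.211 kb upstream of the outer start to 4.989 kb inside, 20.3% of the body, and the same domain ended 0.175 kb from the neighbouring gene Zfp108. In Zfp790, only the first 0.464 kb was covered (2.25%). Zfp575, a short gene of 4.00 kb without strand here, had 85.3% of its body in a 10.8 kb domain that held no other gene.

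Of the 6 genes over 40 kb, Zfp536 and Zfp592 had domains, which were small and deep in the body. Zfp536, a repressor of neuronal differentiation and by far the longest of the group (456 kb), held 3 domains of 1.80, 2.25 and 2.85 kb, 1.51% of its body, the nearest of them 124 kb from its outer start. Zfp592, which encodes a partner of the chromatin reader ZMYND8, had 1 domain of 1.05 kb (2.04%), the narrowest of the 18. Domain width at the 14 genes had a median of 2.48 kb, against 3.15 kb for chromosome 7. Widths of 10 kb or more were found in 4 of the 18 (22.2%, against 9.80% of chromosome 7 domains), at Zfp629, Zfp575, Zfp850 and Zfp977.

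One run of neighbours, Zfp977, Zfp976 and Zfp975, carried domains in all 3 genes. They follow each other on the minus strand between 42579397 and 42692810. Zfp977 (13.1 kb) was covered at both ends, over 58.6% of its body: 1 domain of 2.70 kb began 0.045 kb after the start, and another of 10.35 kb ran from 61.9% of the gene to 5.346 kb past its end, over the pseudogene Gm21028. Zfp976 (34.8 kb) had a domain of 6.15 kb from 76.0 to 93.7% of its length and one of 1.65 kb across its end, 19.2% in all. Zfp975 (32.7 kb) had a single domain of 2.10 kb in its middle, from 43.0 to 49.4% of its length, and 6.42% of its body was covered. Zfp936 (77.9 kb, plus strand), in the same cluster, had no domain, and the nearest lay 33.5 kb away. Its start in the promoter table lies 63.4 kb inside the outer start, and 48.1 kb from the nearest domain.

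The promoter windows of these 4 genes are close copies. Among 3570 pairs of the 85 first windows, the 6 pairs of these 4 genes all ranked among the 8 most alike. Identity over the 300 bases was 91.3% for Zfp977 and Zfp936, 85.7% for Zfp976 and Zfp936, 85.3% for Zfp977 and Zfp976, and 72.3 to 76.3% for the pairs with Zfp975, where the median of all pairs was 58.0%. The 4 windows begin at different points of the shared sequence, Zfp975 farthest in. Bases without a counterpart lower these percentages, so the lower values of Zfp975 do not measure its divergence alone. The windows are shown because genes with like promoters differed in where, or whether, they met a domain. Zfp976, Zfp975 and Zfp936 were chosen for this after their values were seen. Capitals again mark CG, and strands are those of the genes.
Zfp977, chr7:42592496-42592795, minus strand: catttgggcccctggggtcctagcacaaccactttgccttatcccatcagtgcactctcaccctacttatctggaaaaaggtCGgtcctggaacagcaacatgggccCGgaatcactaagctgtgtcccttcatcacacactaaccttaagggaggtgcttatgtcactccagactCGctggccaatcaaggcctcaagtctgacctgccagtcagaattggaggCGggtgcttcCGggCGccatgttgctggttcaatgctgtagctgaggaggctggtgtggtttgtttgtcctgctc
Zfp976, chr7:42642555-42642854, minus strand: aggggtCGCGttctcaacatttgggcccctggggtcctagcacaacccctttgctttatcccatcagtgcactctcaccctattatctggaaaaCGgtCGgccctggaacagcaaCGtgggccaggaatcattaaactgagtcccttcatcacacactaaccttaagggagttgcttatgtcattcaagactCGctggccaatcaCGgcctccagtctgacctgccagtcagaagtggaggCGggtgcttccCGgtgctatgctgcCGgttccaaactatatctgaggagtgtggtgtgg
Zfp975, chr7:42692669-42692968, minus strand: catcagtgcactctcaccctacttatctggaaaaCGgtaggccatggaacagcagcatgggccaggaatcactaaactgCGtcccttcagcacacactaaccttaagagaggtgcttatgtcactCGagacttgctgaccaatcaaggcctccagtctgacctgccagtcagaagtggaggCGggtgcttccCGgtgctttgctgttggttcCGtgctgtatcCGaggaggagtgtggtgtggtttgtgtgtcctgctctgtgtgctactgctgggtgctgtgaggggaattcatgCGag
Zfp936, chr7:43177340-43177639, plus strand: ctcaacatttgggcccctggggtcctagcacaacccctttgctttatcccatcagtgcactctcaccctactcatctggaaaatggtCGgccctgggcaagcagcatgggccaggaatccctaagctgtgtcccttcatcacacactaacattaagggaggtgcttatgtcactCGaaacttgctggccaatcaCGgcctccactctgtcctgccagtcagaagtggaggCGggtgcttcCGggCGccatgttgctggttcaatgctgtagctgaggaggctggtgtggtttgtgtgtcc
The 4 windows held 6, 10, 8 and 6 CG dinucleotides, and each held a CCAAT box, searched as CCAAT or ATTGG for both strands. A CCAAT box stood in 43.2% of the 95 windows of the Zfp genes and in 38.5% of 21045 windows of all protein-coding genes. No window of the 4 lay in a domain beyond the 5 bases of Zfp977. The likeness of the genes outside these windows, where the domains lie, was not measured, and the treatment of reads with several matches was not stated in the labels used, so the assignment of domains among such related genes was not tested.

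The 93 genes fell into 10 clusters of 2 or more genes with gaps of at most 500 kb, which held 82 of them, and 11 single genes. Domains reached at least 1 member in 7 of the 10 clusters, and in 2 of the single genes, Zfp536 and Zfp592. No cluster was covered as a block. Over the 10 clusters together, 6.78% of the sequence lay in domains, against 4.90% of chromosome 7 beyond 3 Mb. Inside Zfp gene bodies it was 3.74%, and in the rest of the clusters 7.82%. The gene bodies made up 25.5% of cluster sequence and held 14.0% of its domain bases. The rest had the higher share in 7 clusters and the gene bodies in 2, and 1 cluster had no domain. Gene bodies were lower on the whole chromosome as well. Domains held 2.04% of the bodies of its protein-coding genes, against 4.90% of the chromosome beyond 3 Mb. The order is thus not particular to Zfp genes.

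**Figure D2:**
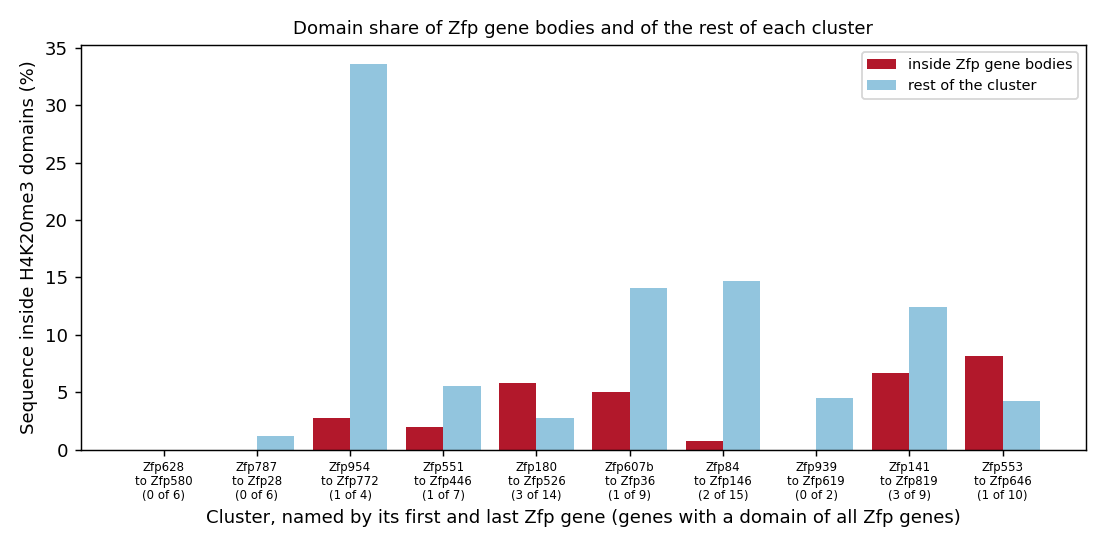
Bars give the percent of sequence inside H4K20me3 domains (y axis) for Zfp gene bodies (red) and the rest of the sequence (blue) in each of the 10 clusters along chromosome 7, with the number of Zfp genes with a domain in parentheses. The rest is higher in 7 clusters, most of all from Zfp954 to Zfp772 (33.6 against 2.80%), and the bodies are higher from Zfp180 to Zfp526 and from Zfp553 to Zfp646.

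The clusters differed widely. The 6 genes from Zfp628 to Zfp580 (138.5 kb) met no domain, inside or between genes. From Zfp787 to Zfp28 the 6 genes were also free, and 0.622% of 265.1 kb was covered. The 4 genes from Zfp954 to Zfp772 lay in the most covered cluster, with 23.0% of 95.32 kb in 3 domains, of which only the 0.923 kb in Zfp773 was inside a Zfp gene. The other domains, 7.65 and 12.9 kb wide, stood between Zfp773 and Zfp418. Of the 7 genes from Zfp551 to Zfp446, only Zfp110 had a domain, and 5 of the 9 domains of this cluster lay on the vomeronasal receptor genes Vmn2r53, Vmn2r55 and Vmn2r56.

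The cluster from Zfp84 to Zfp146 was the one with the most Zfp genes and no other protein-coding gene. Its 15 genes filled 256.5 kb of 401.2 kb, yet 0.771% of gene sequence lay in domains, in Zfp790 and Zfp146, against 14.7% of the sequence between genes. Zfp568, a KRAB protein that represses a placental Igf2 transcript, belongs to it and had its nearest domain at 2.85 kb. From Zfp607b to Zfp36, 5.06% of gene sequence and 14.1% of the rest was covered. Zfp850 was the 1 gene of 9 with a domain there, while the widest domain, 25.2 kb, lay on the pseudogene Gm18672. The cluster from Zfp141 to Zfp819 had the most domains, 24 in 1145 kb, and 3 of its 9 genes met them. Without this cluster, gene bodies stood at 3.07% and the rest at 6.45%.

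In 2 clusters the order was the other way. From Zfp180 to Zfp526 (14 genes, 3 with a domain), 5.77% of gene bodies and 2.79% of the rest was covered. From Zfp553 to Zfp646 (10 genes), the values were 8.19 and 4.25%, and all of the covered gene sequence belonged to Zfp629. Zfp939 and Zfp619 met none, although 1.80 kb of domain lay between them.

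Domains of the clusters that touched no Zfp gene numbered 55, with a median width of 3.45 kb. No annotated gene lay in 36 of them, another protein-coding gene in 13, a long noncoding RNA gene in 3 and a pseudogene in 3. The 55 were 79.7% of the 69 domains of the clusters, where 74.5% of the sequence lay outside Zfp gene bodies.

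The 79 Zfp genes without a domain lay a median of 34.3 kb from one, against 48.0 kb for the 1737 other protein-coding genes of chromosome 7 without a domain. Of the 79, 24 (30.4%) had a domain within 10 kb, against 17.8% of the 1737. The 5 nearest were Zfp114 (0.121 kb), Zfp111 (0.164 kb), Zfp108 (0.175 kb), Zfp771 (0.245 kb) and Zfp553 (0.953 kb). The first 3 lie close together between Zfp180 and Zfp526, and the other 2 lie on either side of 1 domain of 3.60 kb. The 5 farthest were Zfp819 (365 kb), Zfp719 (337 kb), Zfp658 (320 kb), Zfp526 (302 kb) and Zfp646 (237 kb). Zfp819, Zfp719 and Zfp658 stand side by side at the end of the cluster whose other end holds Zfp977, so 1 cluster contained both a run of genes with domains and a run far from any.

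**Figure D3:**
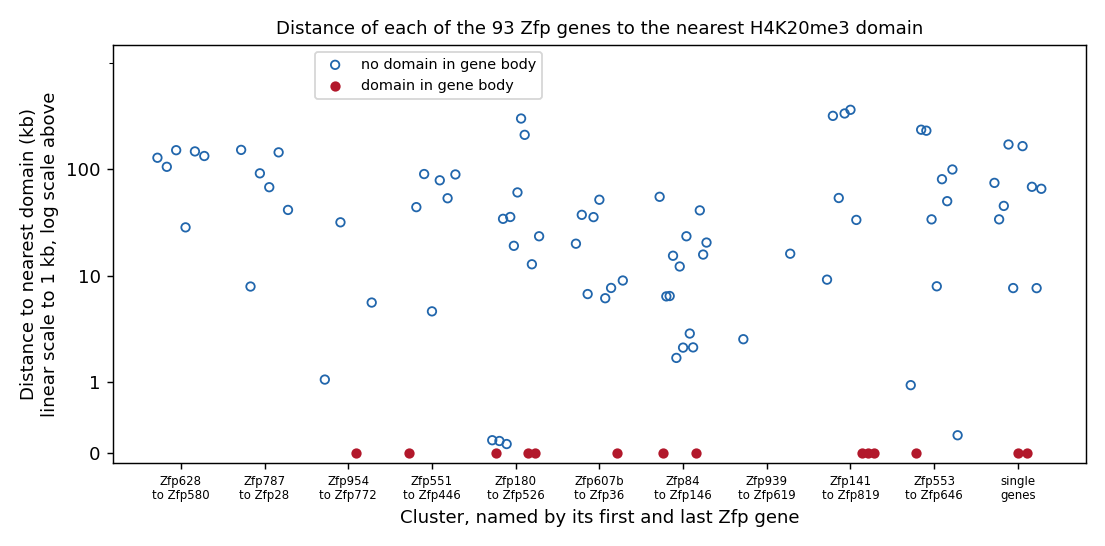
Points give the distance of each of the 93 Zfp genes to the nearest H4K20me3 domain in kb (y axis, linear to 1 kb and logarithmic above) by cluster (x axis), with genes that hold a domain in red at 0. Genes of 1 cluster spread from 0 to 365 kb, as from Zfp141 to Zfp819, while the 6 genes from Zfp628 to Zfp580 stand at 28.5 to 152 kb.

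Around gene starts, domains were more frequent on the upstream side. In the bin from 12 to 11 kb upstream of the outer start, 11 of 85 Zfp genes had a domain (12.9%, against 6.14% of chromosome 7 and 5.48% of all protein-coding genes). In the first 1 kb of the gene 5 of 85 did (5.88%, against 1.66 and 1.64%), and from 3 to 4 kb inside 2 of 85 (2.35%, against 2.12 and 1.78%). In the first 1 kb past the outer end the number was 7 of 85 (8.24%, against 2.35 and 2.32%). No bin of the Zfp genes exceeded the 12.9%, and that bin was chosen for its value. From 7 kb upstream to the outer start the bins held 5.88 to 8.24%, against 2.12 to 4.59% of chromosome 7 genes. Farther downstream the order turned. In the bins from 10 to 20 kb after the outer start, Zfp genes stood at 1.18 to 4.71%, against 4.88 to 5.86%. From 10 to 18 kb past the outer end they stood at 2.35 to 4.71%, against 5.97 to 7.06%. Neighbouring bins and genes share domains, so the single bins are not separate counts.

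**Figure D4:**
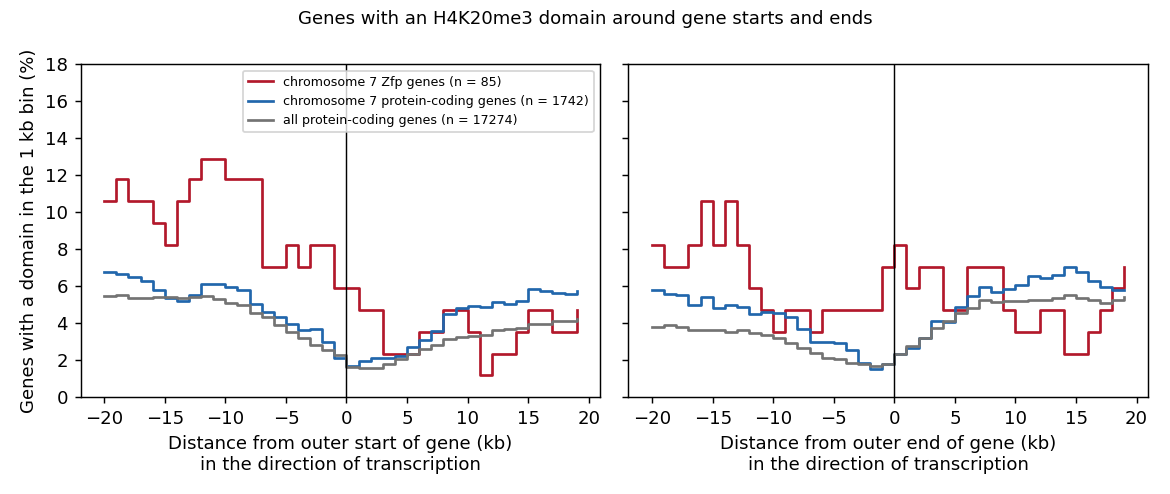
Lines give the percent of genes with an H4K20me3 domain in each 1 kb bin (y axis) by distance in kb from the outer start (left) and the outer end (right) of the gene, for 85 chromosome 7 Zfp genes (red), 1742 protein-coding genes of chromosome 7 (blue) and 17274 in all (grey). The lines of the larger sets are lowest inside the gene, within 3 kb of its boundaries, and the Zfp line reaches 12.9% upstream of the start and 8.24% just past the end. From 10 to 20 kb after the start the Zfp line lies below that of chromosome 7 genes.

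Other zinc finger genes of the chromosome, with the symbols Zscan, Zkscan, Zik, Zim, Znf or Peg3, numbered 12, and 1 had a domain (8.33%, against 10.3% of chromosome 7 protein-coding genes), Zscan4b, a gene of the 2-cell stage, with 18.8% of its body covered. Of 15 genes whose products act with KRAB zinc finger proteins or on the marks they set, 3 had a domain (20.0%, against 14.1% of all protein-coding genes), the histone H3 methyltransferase genes Suv39h1 (41.9% covered) and Setdb1 (18.7%) and the HP1 gene Cbx1 (6.65%). Suv39h1 (5.70 kb in 2 domains) and Setdb1 (6.30 kb in 6 domains) are also the genes marked fl/fl in the labelled genotype. Whether their altered alleles bear on these domains was not tested. Trim28, which lies 38.4 kb from Zfp446 on chromosome 7, and Kmt5b and Kmt5c had none.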

How the data were processed

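The authors deposited 1 domain list, start and end positions with no score, called with RSEG per the file name. No label used states its version, settings or input libraries. Per the submitters' processing notes, bedtools, deepTools, SAMtools 1.1 and Bowtie2 2.3.4.1 were used, with the builds GRCm38, mm10, mm9 and dm6 and no role for any of them. The list itself names no build. All overlaps and distances rest on reading its positions as GRCm38. All but 1 of the domains lie on a 150-base grid, which sets the precision of every boundary. The 12 samples enter no comparison, since the list names none of them.

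Genes and promoter windows came from RefSeq tables of GRCm38.p6. Strand was taken from the promoter table (17274 of 21523 protein-coding genes, 80.3%). A gene met a domain when they shared at least 1 base. Promoter identity is the number of identical bases per 300 in a global alignment (match 1, mismatch -1, gap opening -2, extension -0.5). No test was run, and all shares are descriptions. Interval functions were tested on simulated data. Genes named are all members with a domain and the 5 nearest and 5 farthest without one; further genes, chosen after their values were seen, illustrate clusters. Members and lists were chosen with earlier results of these data known. Python 3.11.15, numpy 2.4.6, pandas 2.3.3, Biopython 1.88 and matplotlib 3.10.9 were used.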

Additional observations from a re-analysis of the deposited data

How the results depend on the processing

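The number of Zfp genes with a domain, 14, ranged from 3 to 26 with the definition. It was 3 when at least 50% of the body had to be covered, 7 when domains narrower than the median were dropped, 4 with domains of 10 kb or wider, and 26 with 5 kb added at both ends. The matching shares of all protein-coding genes were 0.739, 8.42, 1.74 and 20.6%, where the first 3 settings gave 3.23, 7.53 and 4.30% of the Zfp genes, so the order turned for the cut at the median width and not for that at 10 kb. Merging domains closer than 5 kb left 14 (15.1%, against 14.2% of all protein-coding genes). Adding 1 kb gave 19 (20.4 against 15.5%), and all zinc finger symbols gave 15 of 105 (14.3 against 14.1%). Genes with a promoter window that touched a domain numbered 3 (3.53%, against 1.59% of all protein-coding genes). With the outer gene end as the start they numbered 6 (7.06 against 1.63%). The share of covered bases in the last of 3 equal parts of the gene stayed between 45.9 and 54.7% when Zfp629, Zfp977 or Zfp850 was left out singly, and was 59.7% without both Zfp536 and Zfp629 (both chosen after seeing the data). Chains of 200 kb and 1 Mb gave 15 and 11 clusters. Restriction to proteins with a C2H2 pattern was not run, since no protein table was used here. No paired analysis was possible because the list names no sample; the planned comparison of times was not run for the same reason.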

Other observations

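Other tandem gene families of chromosome 7 met domains at very different rates. Among oocyte Nlrp genes, 7 of 13 had a domain (53.8%, median length 42.4 kb), and among the pregnancy-specific Psg genes 5 of 13 did (38.5%, 10.1 kb). Vmn2r vomeronasal receptor genes followed with 12 of 52 (23.1%, 20.3 kb), and Ceacam and Cyp2 genes with 3 of 15 each (20.0%, 12.2 and 12.9 kb). Obox genes gave 1 of 6 (16.7%, 9.25 kb), Zscan4 genes 1 of 4 (25.0%, 4.46 kb) and kallikrein (Klk) genes 3 of 26 (11.5%, 4.61 kb). The single-exon receptor families were low, with 5 of 238 olfactory receptor genes (2.10%) and 2 of 124 Vmn1r genes (1.61%), both with median lengths under 1 kb. The 15.1% of the Zfp genes, at a median length of 14.9 kb, lay between these families. Of all protein-coding genes of chromosome 7, 10.3% had a domain (median length 10.3 kb), and of all protein-coding genes 14.1% (17.4 kb). These are counts over neighbouring genes, with no test of the differences.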
